A study of Mus musculus with 12 samples.

Results

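A set of 44 genes of protein folding, stress signalling and early secretion in the endoplasmic reticulum (ER) were followed in the ankle joints of mice with and without arthritis. A gene was represented by the array feature annotated with its symbol alone, taking the feature with the highest mean over the 12 arrays where there were several. This gave a feature for 42 of the 44 genes, among 28853 features on the array, and all 42 passed the filter on low signal. No feature was assigned to Fkbp10 or Kdelr2, which are not analysed here. The 44 genes fell into 6 role groups of 16 luminal chaperones and folding enzymes, 3 collagen chaperones, 9 stress sensors and transcription factors, 5 genes of ER-associated degradation, 5 of translocation and signal peptide processing, and 6 of vesicle transport and retrieval.

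The study compared C57BL/6 mice with a functional Mmp8 gene (Mmp8+/+) and mice lacking it (Mmp8-/-). Mmp8 encodes neutrophil collagenase. Both genotypes came from intercrosses of heterozygous mice after 12 backcrosses of a mixed background to C57BL/6, and the methods describe the mice on the arrays as males. Arthritic mice of both genotypes received 150 µl of pooled serum from K/BxN mice, which transfers antibody-driven joint inflammation, injected intraperitoneally on day 0 and a second time on day 2. Joints were taken on day 7. Mice used for serum transfer were 6 to 8 weeks old. Control mice of both genotypes had no arthritis, and their ages are not given in the sources used here. Each of the 4 groups held 3 mice, with 1 Affymetrix Mouse Gene 1.0 ST array per mouse and whole ankle joints as the tissue.

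Proteins bound for secretion or membranes enter the ER through the Sec61 channel, fold with the help of luminal chaperones and disulphide isomerases, and leave in COPII-coated vesicles. Unfolded protein activates the sensors Ern1 (IRE1), Eif2ak3 (PERK) and Atf6, and the transcription factors downstream of them raise chaperone and degradation genes in what is called the unfolded protein response. Xbp1 is activated by splicing and Atf6 by cleavage, so a total RNA level does not report the activity of either. In the joint, cells that secrete much collagen, such as fibroblasts, osteoblasts and chondrocytes, use this pathway heavily, and procollagen has chaperones of its own. Because whole joints were measured, a higher or lower level can come from a changed share of a cell type or from changed RNA per cell. These cannot be told apart.

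The ER stress response element (ERSE) is a promoter sequence, bound by NF-Y and activated ATF6, made of CCAAT and CCACG with 9 bases between them. It was searched for on both strands from 250 bases before to 50 bases after each annotated start in RefSeq (GRCm38.p6). Of the 42 genes, 36 had a window, and Manf, Hyou1, Creb3l1, Atf6, Sec61a1 and Spcs3 did not. An ERSE was found in 39 of 32851 windows (0.119%) and in the windows of 8 of the 36 genes. The 9 sites are shown because the element is the pathway's own regulatory sequence. Only exact matches were searched for, so a gene without a site here may hold a variant of the element. Each is written 5′ to 3′ along the strand of its gene, with the 2 conserved parts of the element in capitals. Where the element lies on the opposite strand, these parts read CGTGG and ATTGG.
Hspa5, chr2:34772025-34772043, plus strand: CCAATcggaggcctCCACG
Pdia6, chr12:17266491-17266509, plus strand: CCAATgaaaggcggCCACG
Creld2, chr15:88819520-88819538, plus strand: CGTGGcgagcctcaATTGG
Calr, chr8:84847075-84847093, minus strand: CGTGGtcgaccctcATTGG
Hsp90b1 first site, chr10:86705638-86705656, minus strand: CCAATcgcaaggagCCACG
Hsp90b1 second site, chr10:86705533-86705551, minus strand: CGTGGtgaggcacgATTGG
Canx, chr11:50325800-50325818, minus strand: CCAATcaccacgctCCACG
Dnajc3, chr14:118937827-118937845, plus strand: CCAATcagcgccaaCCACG
Syvn1, chr19:6046532-6046550, plus strand: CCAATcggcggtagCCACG

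The element preferred by XBP1 (UPRE, searched as TGACGTGG) was found in 0.676% of all windows and in those of 2 of the genes, Kdelr3 (on the opposite strand) and Sec24d. The 2 forms searched of the element bound by ATF4, TGATGNAAT and TGATGCAAA, were in 0.965% and 0.271% of all windows and in none of the 36. The CCACG part of the ERSE is also contained in CCACGTCA, the UPRE read on the opposite strand. A match describes the letters of the window and is no evidence of binding.

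Labels were checked first. Mmp8 read 10.21 to 11.16 on the log2 scale on the 6 Mmp8+/+ arrays and 4.64 to 5.54 on 5 of the 6 Mmp8-/- arrays, but 10.65 on the array labelled Mmp8-/- control replicate 2. Xist read 10.42 on Mmp8+/+ control replicate 1 and 10.92 on Mmp8-/- control replicate 1, against 4.66 to 5.41 on the other 10 arrays, and the Y-linked gene Eif2s3y was at 4.02 and 4.16 on these 2 arrays against 7.94 to 9.27 elsewhere. These 3 control arrays go against their labels or the stated sex, so the counts of calls, and the calls that end, are also given without them. Within groups, pairs of arrays correlated at 0.951 to 0.979 over the tested features, and the Mmp8-/- arthritic group was lowest at 0.951 to 0.971. In limma's array weights, which are lower for noisier arrays, Mmp8-/- arthritic replicate 1 had the lowest, 0.35. Next came Mmp8+/+ control replicate 2 at 0.74. Both arrays were kept.

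Arthritis in Mmp8+/+ mice went with higher signal of the folding machinery. Of the 42 genes, 14 rose and none fell at an adjusted p under 5% (limma, Benjamini-Hochberg over 18479 features), which is 33.3% of them, where 18.9% of all tested features were called, 7.2% higher and 11.7% lower. The rises ran from 1.46-fold for Hspa5 to 2.13-fold for Serpinh1. The median log2 difference of the 42 genes was 0.28, and that of all features was 0.01. In Mmp8-/- mice 10 of the 42 rose and none fell (23.8%), where 21.6% of all features were called, 7.92% higher and 13.7% lower, and the median was 0.18 against -0.01. In both genotypes 31 of the 42 differences were above 0. Signal on all 3 arthritic arrays lay above all 3 control arrays for 21 genes in Mmp8+/+ mice (18.6% of all features did so) and for 15 genes in Mmp8-/- mice (18.3%), and below them for 2 genes in each genotype (22.3% and 21% of features). At the stricter threshold of 1%, 9 genes rose in Mmp8+/+ mice (8.69% of all features were called, 2.93% higher and 5.76% lower) and 3 rose in Mmp8-/- mice (8.2% of all features, 2.13% higher and 6.07% lower). At 5%, leaving out the pair of arrays with Xist signal gave counts of 10 and 5, where 10.5% and 9.34% of all features were called. Leaving out the array with Mmp8 signal alone gave 14 and 3, where 17.4% and 12.9% of all features were called. The 3 genes are a smaller share of the 42 than 12.9%. In these refits the counts are of rises, while the shares of all features hold calls in both directions. Without all 3 arrays the counts were 6 and 0, where 9.28% and 2.62% of all features were called, and a single Mmp8-/- control was left.

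**Figure D1:**
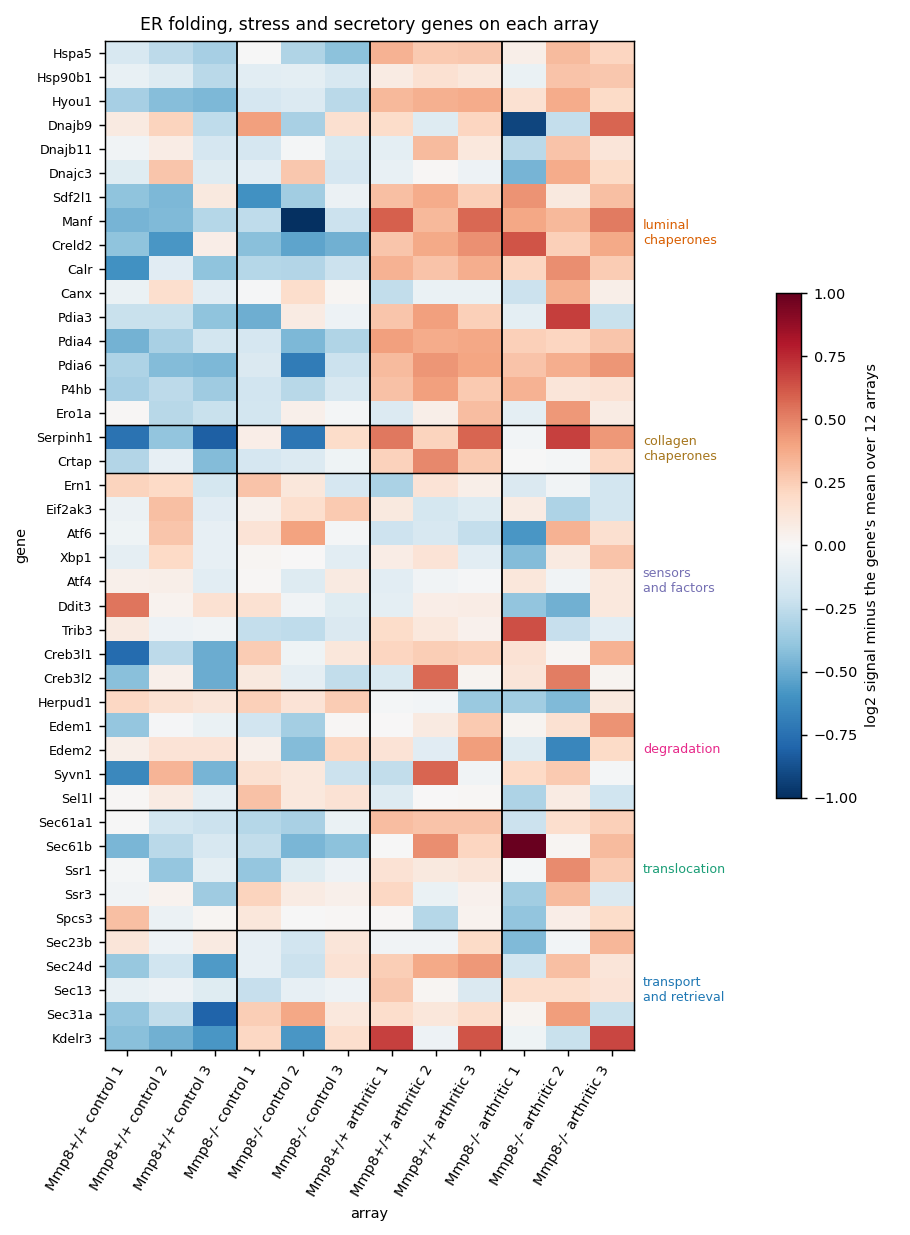
Log2 signal of 42 genes (rows, ordered by role) on 12 arrays (columns, by group), as the difference from each gene's mean over the 12 arrays; colours stop at 1 and -1. Luminal chaperones are mostly blue in control columns and red in arthritic columns, while stress sensors and degradation genes show no such split.

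Both comparisons called 8 genes in common, 57.1% of the calls in Mmp8+/+ mice and 80% of those in Mmp8-/- mice. All 8 are luminal chaperones or folding enzymes (Hspa5, Hyou1, Manf, Creld2, Calr, Pdia4, Pdia6 and P4hb). The 2 comparisons use separate groups of arrays but the same spread of each gene, pooled over the 4 groups. Their calls are therefore not independent. Over all features 2298 were called in the same direction in both, 65.9% and 57.5% of the calls.

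Among the 16 luminal chaperones and folding enzymes, 8 (50%) rose in Mmp8+/+ mice (median 0.57) and 9 (56.2%) in Mmp8-/- mice (median 0.42). Of all features, 18.9% and 21.6% were called. The 16 genes were followed on each array. Their mean log2 level ran from 10.26 to 10.30 on the Mmp8+/+ control arrays, 10.25 to 10.33 on those labelled Mmp8-/- control, 10.70 to 10.76 on the Mmp8+/+ arthritic arrays and 10.54 to 10.80 on the Mmp8-/- arthritic arrays. Each arthritic array lay above every control array on this mean.

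Manf, a small luminal protein that binds BiP and can be secreted, read 8.78, 8.80 and 8.96 in Mmp8+/+ controls and 9.84, 9.57 and 9.82 in Mmp8+/+ arthritic mice. Its Mmp8-/- values were 8.99, 8.16 and 9.03 in controls and 9.63, 9.57 and 9.76 with arthritis. Arthritic and control arrays did not overlap in either genotype. The log2 differences were 0.89 ± 0.20 (SE, adjusted p = 0.00762) and 0.92 ± 0.20 (adjusted p = 0.00672), or 1.86-fold and 1.90-fold. The low value of 8.16 is that of the array with Mmp8 signal, and the Mmp8-/- difference was 0.64 (adjusted p = 0.0232) without it and 0.62 (adjusted p = 0.233) without all 3 arrays in doubt.

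Creld2, an ER stress-inducible protein with disulphide isomerase activity, read 8.48, 8.30 and 8.95 in Mmp8+/+ controls and 9.16, 9.26 and 9.34 in Mmp8+/+ arthritic mice. Its values in Mmp8-/- mice were 8.47, 8.36 and 8.40 in controls and 9.51, 9.12 and 9.26 with arthritis. The groups were again apart, by 0.68 ± 0.17 (adjusted p = 0.0147) and 0.88 ± 0.17 (adjusted p = 0.00324). Without the arrays with Xist signal the Mmp8+/+ difference was 0.63 (adjusted p = 0.0789).

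Pdia6, a disulphide isomerase that also restrains IRE1 and PERK, read 10.65, 10.52 and 10.51 in Mmp8+/+ controls against 11.27, 11.40 and 11.35 in arthritic mice. The Mmp8-/- arrays gave 10.81, 10.26 and 10.74 against 11.24, 11.32 and 11.40. No arthritic array fell within the control range, and the differences were 0.78 ± 0.16 (adjusted p = 0.00368) and 0.71 ± 0.16 (adjusted p = 0.00699).

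Calr, the soluble lectin chaperone calreticulin, read 10.98, 11.47 and 11.18 in Mmp8+/+ controls and 11.93, 11.87 and 11.95 with arthritis. Mmp8-/- values were 11.30, 11.29 and 11.37 in controls and 11.80, 12.05 and 11.84 with arthritis. The rises were 0.71 ± 0.15 (adjusted p = 0.00514) and 0.58 ± 0.15 (adjusted p = 0.0168), and the second was 0.57 (adjusted p = 0.0589) without Mmp8-/- control replicate 1. Canx, its membrane-bound relative, differed by -0.12 (adjusted p = 0.615) and 0.01 (adjusted p = 0.974).

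Hspa5 encodes BiP, the main luminal Hsp70 and a standard reporter of the response, and was picked for its array values after they were seen. It read 11.40, 11.30 and 11.23 in Mmp8+/+ controls and 11.91, 11.82 and 11.83 in arthritic mice, then 11.56, 11.26 and 11.15 and 11.62, 11.88 and 11.78 in the Mmp8-/- groups. The groups were apart in both genotypes, narrowly so in Mmp8-/- mice. Hspa5 rose by 0.54 ± 0.15 (adjusted p = 0.0202) and 0.44 ± 0.15 (adjusted p = 0.049). The Mmp8-/- call was kept in 6 of 22 refits with other settings or fewer arrays, and the Mmp8+/+ call in 17 of 22.

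Hyou1, a nucleotide exchange factor of BiP, rose by 0.75 ± 0.13 in Mmp8+/+ mice (adjusted p = 0.00141) and 0.43 ± 0.13 in Mmp8-/- mice (adjusted p = 0.0335). The isomerases Pdia4 and P4hb rose by 0.71 and 0.63 in Mmp8+/+ mice and by 0.55 and 0.42 in Mmp8-/- mice. P4hb also serves as the beta subunit of the prolyl 4-hydroxylase that modifies collagen. A second, much dimmer feature of Pdia4, with a mean of 5.77, differed by 0.23 (adjusted p = 0.414) and 0.02 (adjusted p = 0.941). Sdf2l1, a partner of BiP co-chaperones, rose in Mmp8-/- mice (0.62 ± 0.19, adjusted p = 0.0286), while its Mmp8+/+ difference was 0.55 ± 0.19 (adjusted p = 0.0509).

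Several of these calls were not kept without the arrays in doubt, where fewer of all features were called too. The part that having fewer arrays played in this was not tested. Without the array with Mmp8 signal, Manf, Creld2 and Pdia6 stayed called in Mmp8-/- mice, Creld2 at 0.86 (adjusted p = 0.0158) and Pdia6 at 0.54 (adjusted p = 0.0363). The other Mmp8-/- differences then missed the threshold, at 0.40 for Hspa5 (adjusted p = 0.128), 0.45 for Hyou1 (adjusted p = 0.0686), 0.56 for Calr (adjusted p = 0.0539), 0.48 for Pdia4 (adjusted p = 0.061), 0.38 for P4hb (adjusted p = 0.117) and 0.62 for Sdf2l1 (adjusted p = 0.0725). Over all 22 refits P4hb was called in 9, Sdf2l1 in 13, Hyou1 in 15 and Pdia4 in 19. Without all 3 arrays none of the 9 Mmp8-/- chaperone calls was kept, with differences from 0.34 for Sdf2l1 to 0.89 for Creld2, and in Mmp8+/+ mice the calls of Hspa5, Creld2, Calr and P4hb ended (adjusted p = 0.0624, 0.105, 0.0711 and 0.0508), while those of Hyou1, Manf, Pdia4 and Pdia6 were kept.

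The chaperones that passed in neither genotype were Hsp90b1 (GRP94, 0.28 and 0.29), the BiP co-chaperones Dnajb9, Dnajb11 and Dnajc3 (-0.27 to 0.16), Canx, the isomerase Pdia3 (0.59 and 0.28) and the oxidase Ero1a (0.24 and 0.18). The 4 genes with an ERSE that rose in both genotypes were Hspa5, Pdia6, Creld2 and Calr. Hsp90b1, Canx, Dnajc3 and Syvn1 have one too and passed in neither. Of the 28 genes whose window had no exact match, 7 rose in Mmp8+/+ mice and 4 in Mmp8-/- mice. The medians with and without a match were 0.45 and 0.21 in Mmp8+/+ and 0.36 and 0.17 in Mmp8-/- mice. Manf and Hyou1, which rose in both genotypes, and Creb3l1, which rose in Mmp8+/+ mice, had no window to search.

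**Figure D2:**
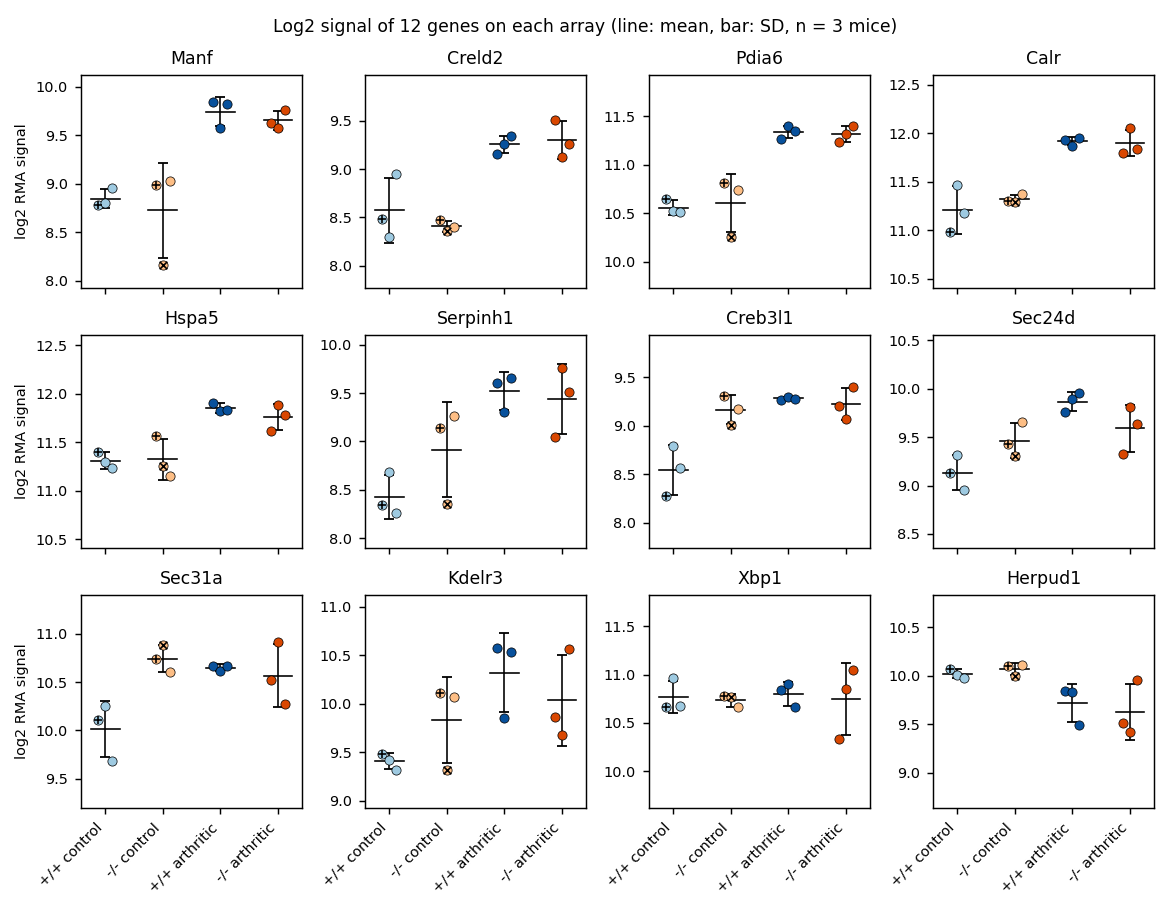
Log2 signal (vertical axis) of 12 genes on each array by group (points, 3 mice; line, mean; bar, SD); + marks the 2 arrays with Xist signal and x the array labelled Mmp8-/- control that has Mmp8 signal. Manf, Creld2, Pdia6, Calr and Hspa5 are higher on all arthritic arrays than on the control arrays of the same genotype, Xbp1 is not, and Creb3l1 and Sec31a are low in the Mmp8+/+ controls alone.

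Few stress sensors and transcription factors were called. In Mmp8+/+ mice 1 of 9 rose (11.1%, where 18.9% of all features were called) and in Mmp8-/- mice none did. The medians were -0.05 and 0.01, with single genes differing in both directions. A missing call does not show that a gene was unchanged. The sensors Ern1, Eif2ak3 and Atf6 differed by -0.12, -0.11 and -0.25 in Mmp8+/+ mice and by -0.20, -0.30 and -0.20 in Mmp8-/- mice, the lowest adjusted p being 0.195. Xbp1, also picked for its array values after they were seen, read 10.67, 10.96 and 10.68 in Mmp8+/+ controls, 10.84, 10.90 and 10.66 in Mmp8+/+ arthritic mice, 10.78, 10.77 and 10.66 in Mmp8-/- controls and 10.33, 10.85 and 11.05 in Mmp8-/- arthritic mice. These ranges overlap throughout. Its differences were 0.03 (95% interval -0.35 to 0.42) and 0.01 (-0.38 to 0.39).

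Ddit3 (CHOP), the factor tied to cell death under prolonged stress, read 7.58, 7.08 and 7.20 in Mmp8+/+ controls and 6.95, 7.11 and 7.12 in arthritic mice. The Mmp8-/- values were 7.20, 7.01 and 6.92 in controls and 6.65, 6.56 and 7.15 with arthritis. The groups overlapped, with differences of -0.23 (interval -0.63 to 0.16) and -0.25 (interval -0.65 to 0.14). Atf4, which acts upstream of it, differed by -0.05 and 0.07, and Trib3, a target of both, by 0.11 and 0.31. Atf6 read 8.81, 9.13 and 8.77 in Mmp8+/+ controls, 8.64, 8.69 and 8.61 in Mmp8+/+ arthritic mice, 8.99, 9.25 and 8.83 in Mmp8-/- controls and 8.27, 9.20 and 9.01 in Mmp8-/- arthritic mice. All 3 Mmp8+/+ arthritic arrays were below the controls, but the difference did not pass (adjusted p = 0.415).

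Creb3l1 (OASIS), an ER-bound factor that drives type I collagen in osteoblasts, was the member of this group that rose. It read 8.28, 8.79 and 8.56 in Mmp8+/+ controls and 9.27, 9.30 and 9.28 in Mmp8+/+ arthritic mice, a rise of 0.74 ± 0.16 (adjusted p = 0.00578). In Mmp8-/- mice it read 9.31, 9.01 and 9.17 in controls and 9.20, 9.07 and 9.40 with arthritis, a difference of 0.06 ± 0.16 (adjusted p = 0.801). The Mmp8-/- controls, the array with Mmp8 signal included, lay above all 3 Mmp8+/+ controls and overlapped both arthritic groups. Its relative Creb3l2, which acts in cartilage, read 7.77, 8.24 and 7.69 and then 8.04, 8.76 and 8.22 in Mmp8+/+ mice, and 8.29, 8.10 and 7.94 and then 8.31, 8.70 and 8.22 in Mmp8-/- mice. Control and arthritic values of Creb3l2 overlapped in both genotypes (0.44, adjusted p = 0.155, and 0.30, adjusted p = 0.313).

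The collagen chaperones rose in Mmp8+/+ mice, both of those measured. Serpinh1 (HSP47), which binds the procollagen triple helix, read 8.34, 8.68 and 8.26 in controls and 9.60, 9.30 and 9.66 with arthritis. For Mmp8-/- mice the values were 9.14, 8.35 and 9.26 in controls and 9.05, 9.76 and 9.51 with arthritis. The Mmp8+/+ groups were well apart, by 1.09 ± 0.24 (adjusted p = 0.0061), the largest rise among the 42 genes, and the Mmp8-/- groups overlapped (0.53 ± 0.24, adjusted p = 0.124). The control at 8.35 is the array with Mmp8 signal, which lay in the Mmp8+/+ control range for this gene, and without it the Mmp8-/- difference was 0.24.

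Crtap, part of the complex that 3-hydroxylates a collagen proline, read 10.00, 10.21 and 9.86 in Mmp8+/+ controls and 10.53, 10.78 and 10.56 with arthritis. Its Mmp8-/- values were 10.13, 10.16 and 10.25 in controls and 10.29, 10.28 and 10.50 with arthritis. Arthritic arrays were above controls in both genotypes, by 0.60 ± 0.15 (adjusted p = 0.0116) and by 0.18 ± 0.15 (adjusted p = 0.393). Without the arrays with Xist signal the first was 0.59 (adjusted p = 0.0594).

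Of the 5 transport genes measured, 3 (60%) rose in Mmp8+/+ mice (median 0.63) and none in Mmp8-/- mice (median 0.13). Of all features, 18.9% and 21.6% were called. Sec24d, a cargo-binding subunit of the COPII coat, read 9.13, 9.31 and 8.95 in Mmp8+/+ controls and 9.76, 9.89 and 9.95 with arthritis, up by 0.74 ± 0.17 (adjusted p = 0.00726). In Mmp8-/- mice it read 9.43, 9.30 and 9.66 in controls and 9.33, 9.81 and 9.63 with arthritis, and these overlapped (0.13 ± 0.17, adjusted p = 0.601). The values for the outer coat subunit Sec31a were 10.11, 10.25 and 9.69 in Mmp8+/+ controls, 10.67, 10.61 and 10.67 in Mmp8+/+ arthritic mice, 10.74, 10.88 and 10.60 in Mmp8-/- controls and 10.52, 10.91 and 10.27 in Mmp8-/- arthritic mice. Here too the Mmp8+/+ controls stood below the other 3 groups. Sec31a rose by 0.63 ± 0.19 in Mmp8+/+ mice (adjusted p = 0.0291, or 0.0764 without the arrays with Xist signal) and differed by -0.17 ± 0.19 in Mmp8-/- mice (adjusted p = 0.518).

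Kdelr3, a receptor that returns escaped ER proteins from the Golgi, read 9.48, 9.42 and 9.32 in Mmp8+/+ controls and 10.58, 9.85 and 10.53 with arthritis. In Mmp8-/- mice it read 10.11, 9.32 and 10.07 in controls and 9.86, 9.68 and 10.57 with arthritis. The array with Mmp8 signal was again the control at the Mmp8+/+ level. Kdelr3 rose by 0.91 ± 0.26 in Mmp8+/+ mice (adjusted p = 0.0269, or 0.0685 without the arrays with Xist signal), and its Mmp8-/- difference was 0.20 ± 0.26 (adjusted p = 0.593), or -0.05 without the array with Mmp8 signal. Kdelr3 and Sec24d are the 2 genes with a UPRE in the window.

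Other coat subunits did not pass. Sec13 read 8.65, 8.67 and 8.60 in Mmp8+/+ controls, 8.99, 8.74 and 8.58 in Mmp8+/+ arthritic mice, 8.49, 8.64 and 8.67 in Mmp8-/- controls and 8.90, 8.90 and 8.86 in Mmp8-/- arthritic mice. Only the Mmp8-/- groups were apart, by 0.29 ± 0.14 (adjusted p = 0.154). Sec23b, which pairs with Sec24 proteins, differed by -0.02 and 0.01.

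None of the 5 degradation genes passed in either genotype, with medians of 0.04 and -0.14. Herpud1, a membrane protein of the degradation complex and a common stress-response target, read 10.07, 10.01 and 9.98 in Mmp8+/+ controls and 9.84, 9.83 and 9.49 with arthritis. Values in Mmp8-/- mice were 10.10, 10.00 and 10.11 in controls and 9.51, 9.42 and 9.96 with arthritis. All 6 arthritic values were below the 6 control values, the opposite order to that of Hspa5, but the differences of -0.30 ± 0.17 (adjusted p = 0.216) and -0.44 ± 0.17 (adjusted p = 0.0676) did not pass. Edem1, which extracts misfolded glycoproteins, read 9.56, 9.94 and 9.88 in Mmp8+/+ controls and 9.95, 10.04 and 10.21 with arthritis, and 9.76, 9.61 and 9.96 and then 9.98, 10.10 and 10.40 in Mmp8-/- mice. Its arthritic arrays were above the controls in each genotype by 0.27 (adjusted p = 0.264) and 0.38 (adjusted p = 0.111).

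Syvn1, the ubiquitin ligase of the same complex, read 7.55, 8.54 and 7.73 in Mmp8+/+ controls, 7.95, 8.78 and 8.16 in Mmp8+/+ arthritic mice, 8.35, 8.30 and 7.98 in Mmp8-/- controls and 8.40, 8.46 and 8.18 in Mmp8-/- arthritic mice. The Mmp8+/+ controls alone spanned most of that range. Sel1l, its adaptor, read 10.01, 10.08 and 9.91 in Mmp8+/+ controls, 9.87, 10.00 and 10.01 in Mmp8+/+ arthritic mice, 10.29, 10.10 and 10.14 in Mmp8-/- controls and 9.69, 10.08 and 9.80 in Mmp8-/- arthritic mice. The Mmp8-/- arthritic arrays were below their controls by 0.32 on average (difference -0.32 ± 0.15, adjusted p = 0.12). Edem2, a mannosidase of the pathway, differed by 0.04 and -0.14.

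In translocation, 1 of 5 genes rose in Mmp8-/- mice (20%, where 21.6% of all features were called) and none in Mmp8+/+ mice. Sec61b, the beta subunit of the channel, read 7.98, 8.16 and 8.27 in Mmp8+/+ controls, 8.43, 8.90 and 8.65 in Mmp8+/+ arthritic mice, 8.19, 7.98 and 8.02 in Mmp8-/- controls and 9.42, 8.45 and 8.75 in Mmp8-/- arthritic mice. All arthritic values were above all control values, with a difference of 0.52 ± 0.22 in Mmp8+/+ mice (adjusted p = 0.104) and a rise of 0.81 ± 0.22 in Mmp8-/- mice (adjusted p = 0.0179). Without the array at 9.42, Mmp8-/- arthritic replicate 1, the latter was 0.53 (adjusted p = 0.0657), and without the array with Mmp8 signal 0.77 (adjusted p = 0.0585). The gene has 2 more features, which differed by 0.47 and 0.45 in Mmp8+/+ mice and rose by 0.92 and 0.84 in Mmp8-/- mice.

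Sec61a1, the pore-forming subunit, read 11.32, 11.14 and 11.11 in Mmp8+/+ controls and 11.63, 11.61 and 11.61 with arthritis, and 11.04, 11.00 and 11.26 and then 11.11, 11.49 and 11.56 in Mmp8-/- mice. The Mmp8+/+ groups were apart, yet the difference of 0.42 ± 0.15 stayed above the threshold (adjusted p = 0.0693). Ssr1, of the translocon-associated complex, read 10.70, 10.33 and 10.62 in Mmp8+/+ controls, 10.86, 10.82 and 10.84 in Mmp8+/+ arthritic mice, 10.33, 10.60 and 10.67 in Mmp8-/- controls and 10.70, 11.19 and 10.97 in Mmp8-/- arthritic mice. It was higher on every arthritic array than on the controls of the same genotype, by 0.29 (adjusted p = 0.225) and 0.42 (adjusted p = 0.0827). Spcs3, a signal peptidase subunit, read 10.65, 10.29 and 10.37, then 10.36, 10.06 and 10.38 in Mmp8+/+ mice, and 10.46, 10.34 and 10.36, then 9.95, 10.41 and 10.53 in Mmp8-/- mice. Its groups overlapped in both genotypes. Ssr3 differed by 0.18 and -0.18.

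**Figure D3:**
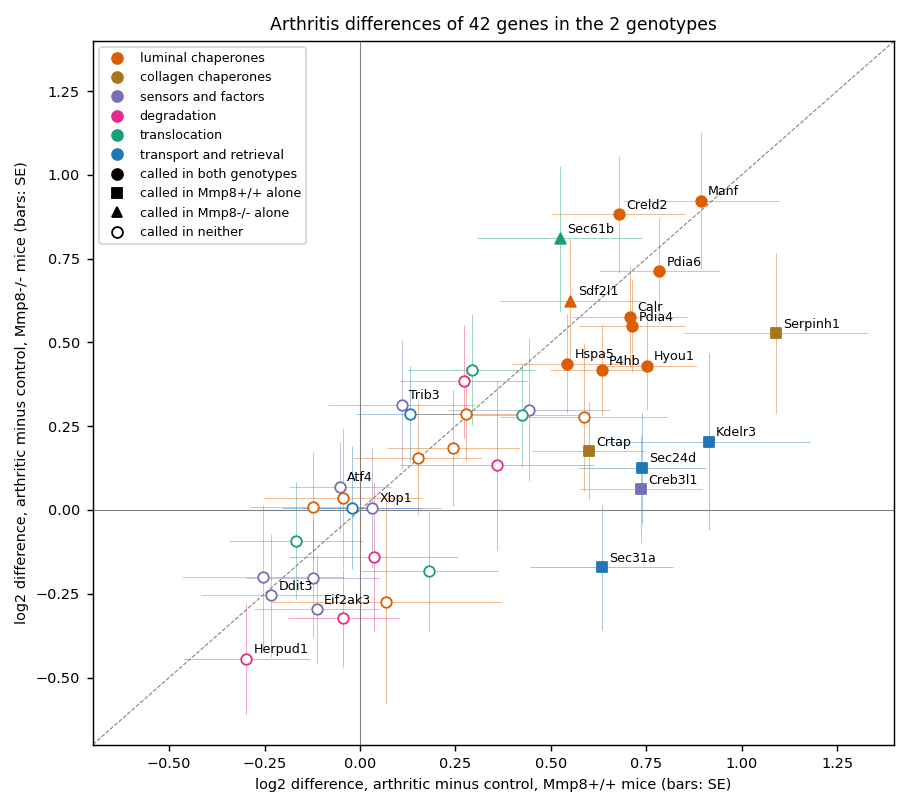
Log2 difference between arthritic and control mice in Mmp8+/+ (horizontal axis) and Mmp8-/- mice (vertical axis) for 42 genes, coloured by role, with SE bars; the dashed line marks equal differences. Most of the 8 genes called in both genotypes lie near the line, but Hyou1 lies below it (0.75 and 0.43). Serpinh1 (1.09 and 0.53) also lies below it, as do Crtap, Sec24d, Creb3l1, Sec31a and Kdelr3, whose Mmp8-/- differences are between -0.17 and 0.20.

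The direct comparison of genotypes asked whether loss of Mmp8 altered these genes. In arthritic mice no gene of the 42 passed, where 0.00541% of all features (1 feature) did, and none had an unadjusted limma p under 0.05, as 523 of all features had. The differences, Mmp8-/- minus Mmp8+/+, ran from -0.35 for Edem2 to 0.21 for Sec61b. Their intervals allow moderate differences in either direction, such as -0.53 to 0.35 for Manf, -0.59 to 0.44 for Serpinh1 and -0.41 to 0.22 for Hspa5. Mmp8 itself, at 5.54, 4.64 and 4.67 on Mmp8-/- and 10.21, 10.69 and 10.58 on Mmp8+/+ arthritic arrays, was not called. The spread is pooled over the 4 groups, and Mmp8 read 4.82, 10.65 and 5.05 on the Mmp8-/- control arrays. A missing call here therefore does not show that a gene was unchanged.

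Among control mice no gene passed either, and 0% of all features did. Unadjusted limma p values were under 0.05 for 2 of the 42 genes and for 596 features. Both genes were higher in Mmp8-/- controls, Sec31a by 0.72 (interval 0.32 to 1.12, adjusted p = 1) and Creb3l1 by 0.62 (interval 0.27 to 0.96, adjusted p = 1). With all 3 arrays in doubt left out these differences were 0.63 and 0.49. Serpinh1, Kdelr3 and Sec24d differed by 0.49, 0.43 and 0.33 in the same direction, with intervals that include 0. Without the array with Mmp8 signal these were 0.77 (interval 0.29 to 1.24), 0.68 (interval 0.11 to 1.25) and 0.42 (interval 0.01 to 0.82), and the adjusted p of each was 1.

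The test of whether arthritis differences varied with genotype (interaction) called none of the 42 genes, and 0% of all features. Unadjusted limma p values were under 0.05 for 3 of the 42 genes and for 576 features. These were Sec31a (-0.80, interval -1.37 to -0.24), Creb3l1 (-0.67, interval -1.16 to -0.19) and Sec24d (-0.61, interval -1.12 to -0.11), and the adjusted p of each was 1. All 3 estimates include the array labelled Mmp8-/- control that has Mmp8 signal. Interaction values without that array are not given here. So the 6 genes called in Mmp8+/+ mice and not in Mmp8-/- mice, and the 2 called the other way, were not shown to differ between genotypes. The medians of the interaction were -0.61 over 5 transport genes, -0.49 over 2 collagen chaperones and -0.07 over 16 luminal chaperones, beside -0.01 over all features. They were -0.18 over degradation genes, -0.02 over sensors and factors and 0.08 over translocation genes. Over the further pathway genes described below the median was -0.15. By list it was -0.20 for vesicle transport, -0.16 for folding, -0.13 for translocation, -0.10 for degradation and 0.04 for stress signalling.

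Markers of fibroblasts, the main collagen-secreting cells of synovium, were lowest in the Mmp8+/+ controls in their list mean but went in both directions with arthritis. In Mmp8+/+ mice 6 of 12 rose and none fell, and in Mmp8-/- mice 3 rose and 2 fell. Their mean log2 level was 11.28 to 11.41 on Mmp8+/+ control arrays, 11.56 to 11.64 on those labelled Mmp8-/- control, 11.77 to 11.84 on Mmp8+/+ arthritic arrays and 11.65 to 11.82 on Mmp8-/- arthritic arrays. The fibrillar collagen Col3a1 rose by 1.09 in Mmp8+/+ mice and differed by 0.45 in Mmp8-/- mice, and Pdpn, a marker of activated fibroblasts, rose by 2.40 and 1.86. Fap, a further marker of activated fibroblasts, went the other way (-0.77, adjusted p = 0.0816, and -1.01, adjusted p = 0.0272), as did Pdgfra (-0.27 and -0.58), Dcn (-0.32 and -0.45) and Prg4 (-0.33 and -0.37). In Mmp8-/- mice 6 of the 12 differences were above 0. What share these markers have in the results above was not tested.

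Markers of plasma cells, which are rich in ER, moved in both directions. Jchain, the antibody joining chain, fell in both genotypes (-2.77 and -2.70), as did the factors Irf4 (-1.03 and -1.38) and Pou2af1 (-1.25 and -1.02). Sdc1 (CD138) rose in Mmp8+/+ mice by 1.02 and differed by 0.42 in Mmp8-/- mice (adjusted p = 0.154), and Prdm1 (Blimp1) rose in both by 0.73 and 0.81. Of 8 plasma cell markers 2 rose and 3 fell in Mmp8+/+ mice, and 1 rose and 3 fell in Mmp8-/- mice, with mean levels of 7.26 to 7.54 on Mmp8+/+ control, 7.34 to 7.55 on Mmp8-/- control, 6.76 to 7.11 on Mmp8+/+ arthritic and 6.82 to 7.19 on Mmp8-/- arthritic arrays. Osteoblast markers fell, 5 of 6 in each genotype, from 8.85 to 9.49 and 9.36 to 9.84 in the 2 control groups to 7.61 to 7.88 and 7.51 to 8.66 in the arthritic groups. Monocyte and macrophage markers rose for 3 of 10 and 4 of 10, and 1 fell in each genotype, with mean levels of 9.78 to 9.97 over control arrays and 10.04 to 10.46 over arthritic arrays. Of 12 neutrophil markers 2 rose and 3 fell in Mmp8+/+ mice and 2 rose in Mmp8-/- mice, and of 12 chondrocyte markers 2 rose and 1 fell in Mmp8+/+ mice and 3 rose and 3 fell in Mmp8-/- mice. Adipocyte markers fell for 8 of 8 in both genotypes and skeletal muscle markers for 9 and 5 of 10. The single feature called between the genotypes in arthritic mice was the keratinocyte gene Krtdap (-1.83, adjusted p = 0.0234), and 8 of 8 keratinocyte markers were lower in Mmp8-/- than in Mmp8+/+ arthritic mice. The part of all these cell types in the results was not tested.

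**Figure D4:**
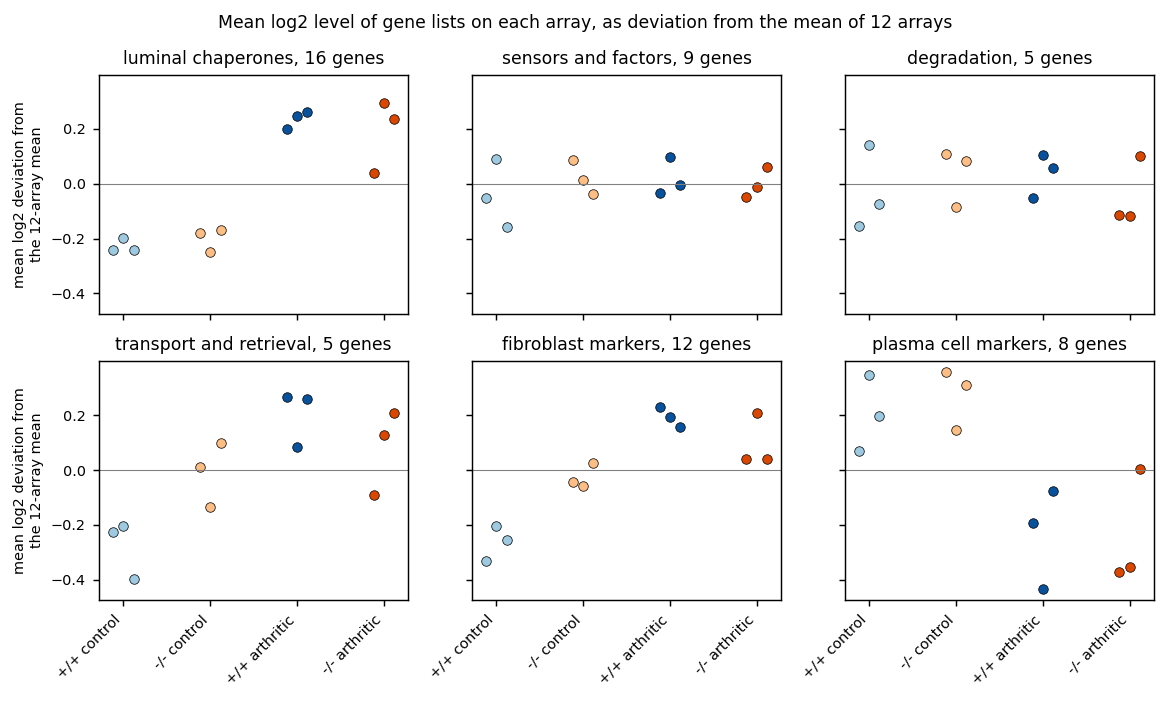
Mean log2 level of 6 gene lists on each array by group, as the deviation from the mean over 12 arrays (vertical axis; each point is 1 array, 3 mice per group). Luminal chaperones separate all arthritic from all control arrays, sensors and degradation genes do not, and the means of transport genes and fibroblast markers are lowest in the Mmp8+/+ controls.

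A further 153 genes of the same pathway, listed by role, gave 147 that were tested. In Mmp8+/+ mice 25 of them rose and 5 fell (median 0.17), and in Mmp8-/- mice 12 rose and 4 fell (median 0.03). These calls make up 20.4% of the 147 genes in Mmp8+/+ mice, near the 18.9% of all features, and 10.9% in Mmp8-/- mice, below the 21.6% of all features. Folding genes gave 9 rises and 1 fall of 29 in Mmp8+/+ mice (34.5% called) and 4 rises in Mmp8-/- mice (13.8%). Their largest were Pdia5, a further isomerase, which rose by 1.37 and 1.21, and Rcn1, a luminal calcium-binding protein, which rose by 1.26 and 0.93. Both moved more than any of the 16 listed chaperones in Mmp8+/+ mice.

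Translocation and N-glycosylation genes gave 8 rises and 1 fall of 27 in Mmp8+/+ mice (33.3% called) and 3 rises in Mmp8-/- mice (11.1%). Of all features, 18.9% and 21.6% were called. Ostc and Krtcap2, subunits of the oligosaccharyltransferase, rose by 0.87 and 0.79 in Mmp8+/+ mice and by 0.83 and 0.63 in Mmp8-/- mice. Vesicle transport genes gave 5 rises and 1 fall of 47 in Mmp8+/+ mice (12.8%). In Mmp8-/- mice they gave 2 rises and 1 fall (6.38%), so both shares were below those of all features. Copz2, a COPI coat subunit, rose by 1.36 and 0.57, and Tmed3, a cargo receptor, rose by 0.79 in Mmp8+/+ mice and differed by 0.47 in Mmp8-/- mice (adjusted p = 0.0551).

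Stress signalling genes and ATF4 targets gave 3 rises and 1 fall of 23 in each genotype, with medians of 0.13 and 0.05. These calls are 17.4% of the list, where 18.9% of all features were called in Mmp8+/+ and 21.6% in Mmp8-/- mice. Slc7a11, the cystine transporter, rose by 1.92 and 2.00, and the stress-inducible factor Nupr1 fell (-1.04 and -1.27). Degradation genes gave no rise among 21 in either genotype. There was 1 fall in Mmp8+/+ mice (4.76%) and there were 2 in Mmp8-/- mice (9.52%), again below the shares of all features. Rnf139, a membrane ubiquitin ligase, fell (-0.68 and -0.63). Ufd1, which helps extract substrates from the membrane, fell by 0.75 in Mmp8-/- mice and differed by -0.52 in Mmp8+/+ mice (adjusted p = 0.103).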

How the data were processed

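Total RNA of ankle joints from 12 mice was hybridised to Affymetrix Mouse Gene 1.0 ST arrays. The authors deposited log2 signals per feature, after Robust Multichip Average background correction, quantile normalisation and summary, and the submitters' notes also name Partek. These steps were not repeated, and the build of the array annotation is not given in the sources used here. Groups were taken from the submission's labels.

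Features with a named gene and a mean log2 signal of at least 5.3 were tested (18479). Of 21789 features with 1 symbol, 21698 matched RefSeq GRCm38.p6 by gene ID. Group means over all 12 arrays, with 8 residual degrees of freedom and no covariate, entered limma 3.58.1 (R 4.3.3), two-sided, with Benjamini-Hochberg adjustment over all tested features at 5%. Every adjusted p is from limma. Errors are SE, intervals are 95% and unadjusted, and fold changes are 2 to the power of the log2 difference. The number of arrays limits the precision. Levels of different features were not compared. Scripts were tested on simulated data.

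Genes, roles and pathway and marker lists were chosen with earlier results of these data known. Array values are given for up to 4 genes per role with the largest absolute mean of the 2 arthritis differences, and, of the other pathway genes, for 2 per list the differences. Alternatives were another filter, scaling, model, threshold or set of arrays. A planned search of protein ends was not run.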

Additional observations from a re-analysis of the deposited data

How the results depend on the processing

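No paired analysis was possible because replicate numbers were given in accession order and mark no shared litter or batch. The share of all features called also changed between refits, so a changed count does not concern the listed genes alone. It was 18.9% in Mmp8+/+ and 21.6% in Mmp8-/- mice in the main fit, and 8.69% and 8.2% at a threshold of 1%. Shares without the arrays in doubt stand beside the counts above, and those of the other refits are not given here. In Mmp8+/+ mice, 14 genes were higher with arthritis. The number was 9 at a threshold of 1%, 6 without all 3 arrays in doubt, and 10 to 17 when each array in turn was left out. In Mmp8-/- mice, where 10 genes were higher, the number was 3 at 1%, 5 with the compared groups alone, 5 without both arrays with Xist signal, 0 without all 3 arrays in doubt, and 3 to 9 when each array in turn was left out. It was 3 without the array labelled Mmp8-/- control replicate 2 (Manf, Creld2 and Pdia6), 6 without Mmp8-/- control replicate 1 and 6 without Mmp8-/- arthritic replicate 1. Without all 3 arrays a single Mmp8-/- control is left, assumed to vary like the other groups, and 2.62% of all features were then called in that comparison. Lower genes in Mmp8-/- mice numbered 0 to 1 when each array in turn was left out, the 1 being Herpud1 without Mmp8-/- arthritic replicate 3. No gene was called in a genotype comparison or in the interaction under any alternative run, and no called difference changed sign. Hyou1, Manf, Pdia4, Pdia6, Serpinh1 and Sec24d were called in Mmp8+/+ mice in all 22 refits. The interaction was not run with the compared groups alone.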
